A study of Ctenopharyngodon idella with 6 samples.

Results

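The miR-17-92 cluster and its paralogs were examined in the plasma exosomes of grass carp, and their members were all entries of the table of known miRNAs that carry the family number miR-17, miR-18, miR-19, miR-20, miR-25, miR-92, miR-93, miR-106 or miR-363, whatever the species prefix, letter or arm. They made up 204 of 2925 entries. Large fish (L) and small fish (S) of 1 pond, 10 months old and reared together at high density for 9 months, were compared, and no treatment separated them. They were chosen by body weight, as the largest and the smallest fish of a random catch. Each of the 3 large fish libraries (L1 to L3) came from the plasma exosomes of 2 pooled fish and each of the 3 small fish libraries (S1 to S3) from those of 5 pooled fish. The size of the fish and the number of fish in a pool therefore cannot be told apart. The 3 libraries of a group were separate pools, so that the p-values measure the spread between pools and not between fish.

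MicroRNAs of this family are cut from the 2 arms of short hairpins, and several hairpins lie in a row on 1 primary transcript. In mammals the miR-17-92 cluster yields miR-17, miR-18a, miR-19a, miR-20a, miR-19b and miR-92a, a paralogous cluster yields miR-106a, miR-18b, miR-20b, miR-19b, miR-92a and miR-363, and another yields miR-106b, miR-93 and miR-25. A miRNA recognises its target mRNAs mainly through its seed, bases 2 to 8 from the 5′ end, and members that share a seed are expected to share targets. The clusters are known for driving cell proliferation and for their role in the development of B lymphocytes. Blood cells and vessel walls hold them, with miR-92a known as a restraint on the growth of new vessels and miR-25 and miR-92a as abundant miRNAs of red blood cells.

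The members were put into 4 groups by family number, each named by its most common seed. The arm that carries the group's seed is called the guide arm here. Medians given below for a seed cover the tested entries of both arms of its group. The following mature sequences, read from the deposited table and written 5′ to 3′ with T for U and the seed in capitals, stand for the guide arms on which the comparison turned. The first 5 share the seed of miR-17, the next 2 that of miR-18, the next 2 that of miR-19 and the last 3 that of miR-25.
dre-miR-17a-5p: cAAAGTGCttacagtgcaggta
dre-miR-20b-5p: cAAAGTGCtcacagtgcaggtag
hsa-miR-20a-5p: tAAAGTGCttatagtgcaggtag
abu-miR-106: tAAAGTGCttacagtgcaggtag
dre-miR-93: aAAAGTGCtgtttgtgcaggta
dre-miR-18c: tAAGGTGCatcttgtgtagtta
dre-miR-18b-5p: tAAGGTGCatttagtgcagata
dre-miR-19c-3p: tGTGCAAAtccatgcaaaactcg
hsa-miR-19b-3p: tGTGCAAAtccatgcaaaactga
hsa-miR-25-3p: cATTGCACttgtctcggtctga
hsa-miR-92a-3p: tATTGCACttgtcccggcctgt
hsa-miR-363-3p: aATTGCACggtatccatctgta
The seed AAAGTGC was found in 37 member entries, AAGGTGC in 19, GTGCAAA in 16 and ATTGCAC in 61.

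All 2925 entries had different mature sequences, so a name stood for a sequence and its species prefix only for 1 species that carries it. The members bore 61 species prefixes (dre, zebrafish; ccr, common carp; hsa, human), yet their values fell into only 105 distinct sets, and names whose sequences differ little often had the same counts. Such names cannot be told apart, and every level below belongs to a group of similar sequences rather than to 1 gene. The values are counts per 1000000 miRNA counts of a library (CPM). Totals were 5272418 to 7660938 counts in large fish and 6684107 to 11524535 counts in small fish. A count of 0 allowed up to 3 counts, which came to 0.392 to 0.569 CPM in large fish and 0.260 to 0.449 CPM in small fish. Such limits cover counting error only.

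Of the 204 members, 133 reached 1 CPM in 3 or more libraries and were tested, in 67 distinct sets of values. The other 71 averaged at most 0.944 CPM, and 50 of the 204 were at 0 in at least 1 library. None of the 133 members passed the test, limma on log2(CPM + 1) with adjustment over all 1807 tested entries, for which both an adjusted p no larger than 0.05 and a fold no smaller than 1.5 were asked. Of the 1807 entries 308 passed, 51 of them higher (2.82%) and 257 lower (14.2%) in large fish. Scaling by the trimmed mean of the log ratios between libraries (TMM) gave 92 higher and 164 lower entries, and quantile normalization 138 higher and 95 lower. At an unadjusted p under 0.05 there were 34 members, against 587 entries in the whole table (32.5%). edgeR's quasi-likelihood test on whole counts passed 0 members, where 1.33% of the table was higher and 1.22% lower. Other settings passed members, in every case higher in large fish. DESeq2 passed 33 members (9.68% of the table was higher in large fish), edgeR's exact test 30 (8.02%), quantile normalization 27 (7.64%), TMM scaling 14 (5.09%), the bias-corrected quasi-likelihood test 14 (5.26%) and limma without trend 2 (2.21%). They were names of miR-92, miR-93 and the other arm of miR-19b.

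The median log2 fold change, large minus small fish, was -0.26 over all tested entries. TMM scaling moved this median to -0.10 and quantile normalization to 0.09, and a member near 0 on the CPM scale was accordingly above the middle of the table. In 189 of 1807 entries every large fish library lay above every small fish library (10.5%), and in 535 every one lay below (29.6%). Among the 133 tested members the numbers were 34 above (25.6%) and 17 below (12.8%). Of the 34 names above, 29 were of miR-92, in 15 distinct sets of values. The distinct sets of values had a median log2 fold change of 0.75 for the seed of miR-25, miR-92 and miR-363, of -0.50 for that of miR-19, of -0.27 for that of miR-18 and of 0.06 for that of miR-17, miR-20, miR-93 and miR-106. With the guide arm alone these medians were 0.75, -0.51, -0.27 and 0.06 in the same order. The median for miR-18 turned positive, to 0.18, after quantile normalization.

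**Figure D1:**
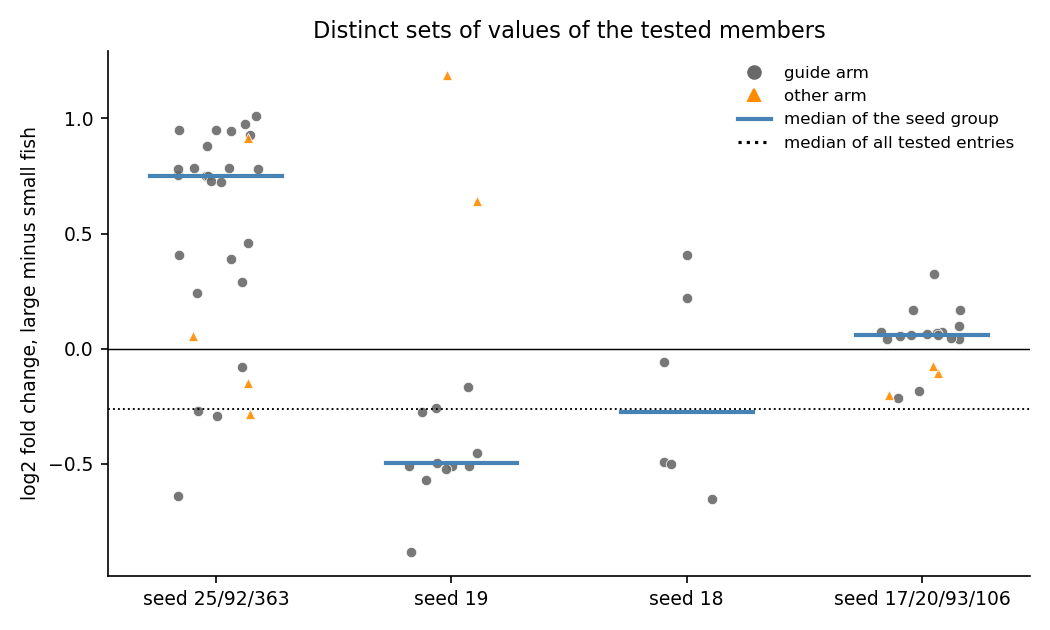
Log2 fold change, large minus small fish, of the 67 distinct sets of values of the tested members, by seed group, with circles for the guide arm, triangles for the other arm, a bar for the median of each seed group and a dotted line for the median of all tested entries (-0.26). Most points of the seed of miR-25 lie between 0.24 and 1.01, the guide-arm points of the seed of miR-19 lie below 0, and most points of the seed of miR-17 lie close to 0.

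Among the 148 miR numbers of the table with a tested entry, ranked by their most abundant tested entry, the members spanned ranks 20 to 113. Names without a miR number were not ranked. miR-25 ranked 20, miR-19 ranked 25, miR-92 ranked 38, miR-93 ranked 56, miR-18 ranked 73, miR-20 ranked 77, miR-106 ranked 78, miR-17 ranked 103 and miR-363 ranked 113. The rank of miR-363 was that of an other-arm entry, dre-miR-363-5p, and the other member ranks were those of guide arms. miR-20 and miR-106 could not be placed in order, since their leading names had nearly the same counts.

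**Figure D2:**
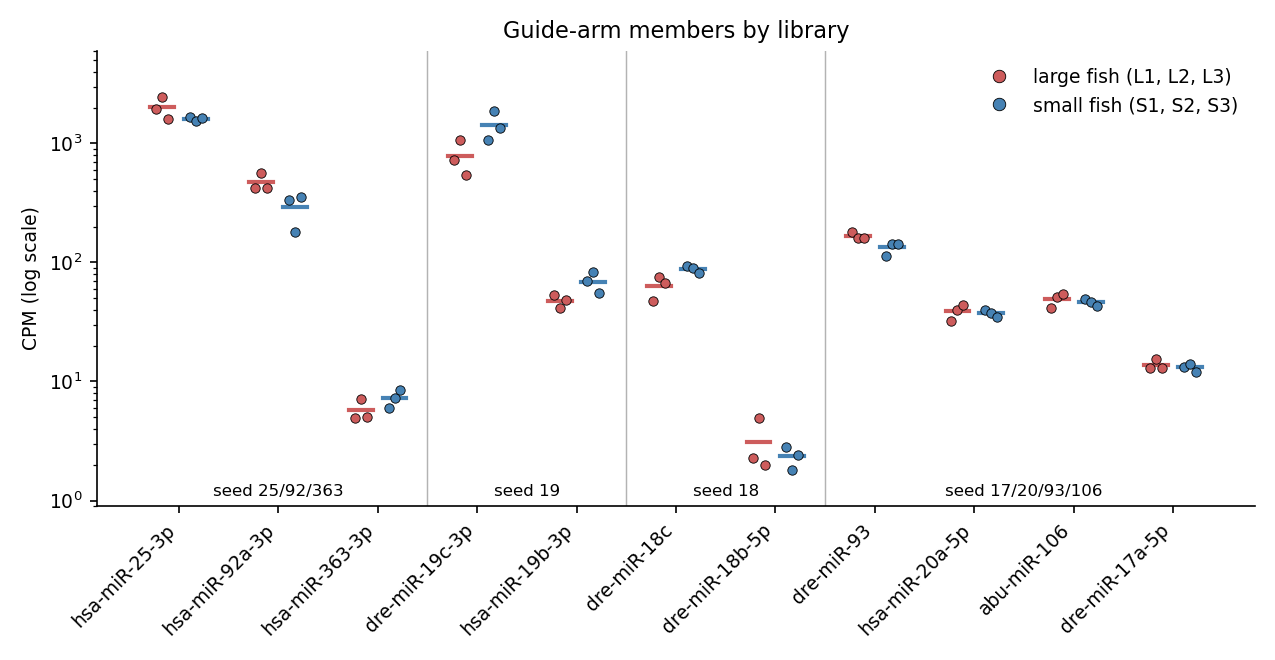
CPM (log scale) of 11 guide-arm members in each library, with large fish in red to the left of small fish in blue and a bar for the mean of the 3 libraries. The groups are apart for hsa-miR-92a-3p and dre-miR-93, with large fish above, and for hsa-miR-19b-3p and dre-miR-18c, with large fish below, and they overlap for the other members.

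The seed of miR-25, miR-92 and miR-363 held the guide arm of miR-92, whose tested log2 fold changes lay above 0 and did not pass the test. miR-92a, in mammals the last miRNA of the miR-17-92 transcript, had 423.1, 568.5 and 421.5 CPM in the large fish libraries L1 to L3 and 335.7, 178.5 and 355.2 CPM in the small fish libraries S1 to S3, as hsa-miR-92a-3p. Each large fish library lay above each small fish library, L2 was the highest and S2 the lowest. The averages were 471.0 ± 84.4 CPM in large fish and 289.8 ± 96.9 CPM in small fish (n = 3 each, SD). The log2 fold change was 0.75 (SE 0.31, 95% interval 0.01 to 1.48, limma adjusted p = 0.146). Without S2 it was 0.43, and edgeR's exact test and DESeq2 passed it with adjusted p = 0.0446 and 0.0211.

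All 20 distinct sets of the tested miR-92 guide arm were above 0, at log2 fold changes of 0.24 to 1.01. This held after TMM scaling and quantile normalization too. On the CPM scale, 339 of all 968 distinct sets of tested entries were above 0. Some of the 20 sets had nearly the same counts and are not separate evidence, among rare sets too. For example, sko-miR-92a had 66, 133 and 73 counts in large fish and 49, 51 and 62 counts in small fish. The set of asu-miR-92-3p had 65, 134 and 73 counts in large fish and the same counts in small fish. The 7 sets that averaged over 100 CPM lay between 0.75 and 0.79, and their sequences are near-identical: sko-miR-92c, which differs from hsa-miR-92a-3p by T10C (positions counted from the 5′ end, the base of hsa-miR-92a-3p first), had counts within 1.38% of its counts in every library. The largest log2 fold change of these sets on the log2(CPM + 1) scale was that of aga-miR-92b, a mosquito name chosen after its values were seen, with 14.8, 21.7 and 13.5 CPM in large fish and 9.13, 5.12 and 9.27 CPM in small fish. Its log2 fold change was 1.01 (SE 0.31, limma adjusted p = 0.0712), and 5 of 19 alternatives passed it. It differs from hsa-miR-92a-3p by T1A and T22C (hsa-miR-92a-3p first), and L2 was again the highest and S2 the lowest library.
aga-miR-92b: aATTGCACttgtcccggcctgc
The fish names of miR-92b differed in level. The medaka name ola-miR-92b, taken up after its values were seen, had 12.7, 18.3 and 11.5 CPM in large fish and 7.93, 4.77 and 9.27 CPM in small fish, with groups that were apart and a log2 fold change of 0.88 (SE 0.31, limma adjusted p = 0.0973). The name spu-miR-92c had the same counts, so these values are not particular to miR-92b. The zebrafish name was rarer: dre-miR-92b-3p had 7, 26 and 8 counts in large fish and 9, 10 and 16 counts in small fish, 1.33, 3.39 and 1.23 CPM against 1.35, 0.868 and 2.15 CPM. Its groups overlapped, at a log2 fold change of 0.24 (SE 0.37, limma adjusted p = 0.686).

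miR-25, the most abundant member, had 1946, 2458 and 1611 CPM in large fish and 1664, 1538 and 1642 CPM in small fish as hsa-miR-25-3p. The groups overlapped, since L3 lay below S1 and S3. The log2 fold change was 0.29 (SE 0.21, 95% interval -0.21 to 0.79, limma adjusted p = 0.387). The small fish libraries were close together, at 1615 ± 67.0 CPM (SD, n = 3), and the large fish libraries spread more widely, at 2005 ± 427 CPM (SD, n = 3). The ratio of miR-25 to miR-92a, chosen after the values were seen and not tested, was 4.60, 4.32 and 3.82 in the large fish libraries L1 to L3. In the small fish libraries S1 to S3 it was 4.96, 8.62 and 4.62. The groups did not overlap in this ratio, but the margin between L1 and S3 was small, and S2 stood far above the other libraries.

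miR-363, the last guide of the miR-106a cluster in mammals, carries the same seed as miR-92a, and the difference between their changes was not tested. hsa-miR-363-3p had 4.93, 7.18 and 5.06 CPM in large fish and 5.98, 7.20 and 8.47 CPM in small fish, with a log2 fold change of -0.29 (SE 0.26, limma adjusted p = 0.479). The groups overlapped. chi-miR-363-3p, a name taken up after its values were seen, had 1.14, 1.83 and 1.69 CPM in large fish and 2.24, 2.78 and 4.03 CPM in small fish. All 3 large fish libraries lay below the small fish libraries, at a log2 fold change of -0.64 (SE 0.28, limma adjusted p = 0.166). All 3 distinct sets of the miR-363 guide arm were below 0 on the CPM scale, as were 629 of 968 distinct sets of the table. Of the 3 sets, 2 turned positive after quantile normalization.

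The seed of miR-19 was that of guides with log2 fold changes below 0, none of which passed the test. miR-19c, a fish form, was its most abundant guide, with 731.5, 1076 and 544.6 CPM in the large fish libraries L1 to L3 and 1061, 1884 and 1345 CPM in the small fish libraries S1 to S3 as dre-miR-19c-3p. S2 was the highest library and L3 the lowest, and the groups overlapped by a little because L2 lay above S1. The averages were 784.0 ± 270 CPM in large fish and 1430 ± 418 CPM in small fish (n = 3 each, SD), and the log2 fold change was -0.88 (SE 0.32, 95% interval -1.64 to -0.12, limma adjusted p = 0.105). The adjusted p ran between 0.0731 and 0.371 over its 19 alternatives.

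miR-19b was rarer, with 53.7, 41.8 and 48.0 CPM in large fish and 69.7, 82.3 and 55.1 CPM in small fish as hsa-miR-19b-3p. Every large fish library lay below every small fish library, and the log2 fold change was -0.51 (SE 0.24, limma adjusted p = 0.183). The zebrafish form dre-miR-19d-3p, which differs from it by T9C (hsa-miR-19b-3p first), had a similar log2 fold change of -0.52. Its groups overlapped, since L1 at 47.6 CPM lay above S3 at 46.8 CPM. All 11 distinct sets of the miR-19 guide arm were below 0, between -0.88 and -0.17, on the CPM scale and after TMM scaling, and 3 of the 11 turned positive after quantile normalization. Of the 11 sets, 5 had large fish wholly below small fish, against 280 of 968 distinct sets of the table. Counted by name they were 10 of the 17 tested miR-19 guide entries, against 29.6% of the table. The most abundant guide, dre-miR-19c-3p, was not among them. Some of these sets had nearly the same counts, such as those of ola-miR-19b and hsa-miR-19b-3p, and are not separate evidence.

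dre-miR-19c-3p and hsa-miR-19b-3p differ only by G22C and A23G at the 3′ end (hsa-miR-19b-3p first), and share the first 21 bases. Their counts were nonetheless far apart, 3857, 8242 and 3549 for dre-miR-19c-3p in large fish against 283, 320 and 313 for hsa-miR-19b-3p, and 7089, 21712 and 10011 against 466, 949 and 410 in small fish. The medaka entry ola-miR-19b, whose 18 bases begin both sequences, had 283, 320 and 312 counts in large fish and 465, 948 and 410 counts in small fish, close to hsa-miR-19b-3p.

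The log2 fold changes of the miR-18 guides lay on both sides of 0. dre-miR-18c, the most abundant, had 47.8, 75.8 and 66.6 CPM in large fish and 94.0, 89.1 and 81.0 CPM in small fish. Each large fish library lay below each small fish library, at averages of 63.4 ± 14.3 CPM in large fish and 88.0 ± 6.53 CPM in small fish (n = 3 each, SD). The log2 fold change was -0.49 (SE 0.24, 95% interval -1.05 to 0.07, limma adjusted p = 0.199), and it was -0.01 after quantile normalization. mze-miR-18b, a cichlid name taken up after its values were seen, had 43.6, 57.3 and 58.5 CPM in large fish and 89.0, 85.5 and 76.1 CPM in small fish. Its log2 fold change of -0.65 (SE 0.22, limma adjusted p = 0.0808) was the lowest of the miR-18 sets.

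dre-miR-18b-5p was rare, with 2.28, 4.96 and 2.00 CPM in large fish and 2.84, 1.82 and 2.42 CPM in small fish. The groups overlapped, and the log2 fold change of 0.22 (SE 0.34) rested on L2, without which it was -0.09. It differs from dre-miR-18c by C11T, T13A, T17C and T20A (dre-miR-18c first), and its counts were 12, 38 and 13 in large fish against 19, 21 and 18 in small fish. dre-miR-18c had 252, 581 and 434 counts in large fish and 628, 1027 and 603 counts in small fish.

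The seed of miR-17, miR-20, miR-93 and miR-106 gave the steadiest members. dre-miR-17a-5p had 12.9, 15.4 and 13.0 CPM in large fish and 13.2, 14.1 and 12.1 CPM in small fish. The groups overlapped, and the averages were 13.8 ± 1.41 CPM in large fish and 13.1 ± 0.982 CPM in small fish (n = 3 each, SD). The log2 fold change was 0.07 (SE 0.22, 95% interval -0.44 to 0.57, limma adjusted p = 0.862), and a difference within that interval was not excluded. The highest library held 1.27 times the level of the lowest, a ratio undercut by 2.56% of the 1681 tested entries with no library at 0, whose median ratio was 2.70.

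miR-20 was alike in this. pma-miR-20a-5p, a lamprey name and the most abundant of the number, had 41.7, 51.2 and 53.9 CPM in large fish and 49.2, 46.8 and 43.0 CPM in small fish, giving a log2 fold change of 0.07 (SE 0.21, limma adjusted p = 0.850). hsa-miR-20a-5p had 32.2, 40.2 and 43.9 CPM in large fish and 40.0, 37.4 and 34.9 CPM in small fish, with a log2 fold change of 0.04. abu-miR-106, the leading entry of miR-106, had 41.7, 51.0 and 53.9 CPM in large fish and 49.2, 46.7 and 42.9 CPM in small fish. Its counts differed from those of pma-miR-20a-5p by at most 0.312% in any library, so it is not separate evidence on miR-106.

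Some names of miR-17, miR-20 and miR-106 could not be told apart in these data, and others could. dre-miR-17a-5p and dre-miR-20b-5p differ by T10C (dre-miR-17a-5p first) and had 68, 118 and 85 counts against 68, 113 and 84 counts in large fish, and 88, 162 and 90 against 86, 162 and 88 in small fish. hsa-miR-20a-5p and the opossum name mdo-miR-106-5p, which differ by T1A (hsa-miR-20a-5p first), differed by at most 0.769% in any library. dre-miR-17a-5p and pma-miR-20a-5p, which differ by C12T (dre-miR-17a-5p first), were in contrast apart by up to 312.9%. Over these numbers, 9 pairs of distinct guide-arm sets with different numbers lay within 10% of each other in every library. The values of hsa-miR-20a-5p were shared outright by 6 names, among them pbv-miR-106-5p. Over all members, 2 sets of values were shared by 8 names of different numbers. The other set was that of the untested mdo-miR-18b-3p and cte-miR-92a, which had 1 count in S3 and 0 elsewhere.

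miR-93, the guide next to miR-25 in the mammalian miR-106b cluster, was the only tested number of this seed whose groups were apart. dre-miR-93 had 180.9, 160.7 and 159.7 CPM in large fish and 114.0, 143.6 and 144.1 CPM in small fish, and its log2 fold change was 0.32 (SE 0.20, 95% interval -0.15 to 0.80, limma adjusted p = 0.310). Quantile normalization and DESeq2 passed it, the alternatives giving adjusted p between 0.0354 and 0.647. The human form was nearly missing: hsa-miR-93-5p, which differs from dre-miR-93 by A1C and T13C (dre-miR-93 first), had 5, 0 and 2 counts in large fish and 2, 4 and 5 counts in small fish, while dre-miR-93 had 954, 1231 and 1041 counts in large fish and 762, 1655 and 1072 counts in small fish. The ratio of miR-25 to miR-93, 10.8, 15.3 and 10.1 in large fish against 14.6, 10.7 and 11.4 in small fish, overlapped between the groups.

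Ratios between members within a library were apart between the groups for some pairs and overlapped for others. The ratios below, and those of miR-25 to miR-92a and to miR-93 above, were chosen after the values were seen and carry no test. A ratio within a library does not depend on how the libraries are scaled. The ratio of hsa-miR-92a-3p to dre-miR-19c-3p was 0.578, 0.528 and 0.774 in the large fish libraries L1 to L3 and 0.317, 0.0947 and 0.264 in the small fish libraries S1 to S3. Every large fish library exceeded every small fish library, and S2 stood lowest. Relative to dre-miR-18c, hsa-miR-92a-3p stood at 8.85, 7.50 and 6.33 in large fish against 3.57, 2.00 and 4.38 in small fish, again without overlap. Relative to hsa-miR-20a-5p the values were 13.1, 14.1 and 9.60 in large fish against 8.40, 4.77 and 10.2 in small fish, and here the groups overlapped.

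**Figure D3:**
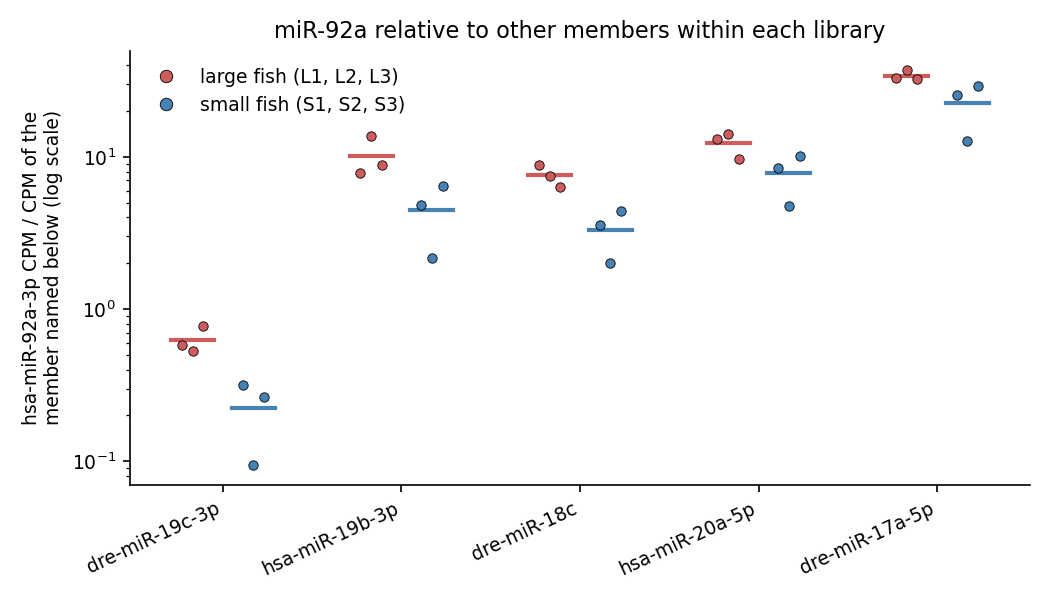
CPM of hsa-miR-92a-3p divided by the CPM of another member in the same library (log scale), for 5 other members, with large fish in red to the left of small fish in blue and a bar for the mean. Large fish lie above small fish for dre-miR-19c-3p, hsa-miR-19b-3p, dre-miR-18c and dre-miR-17a-5p, the groups overlap for hsa-miR-20a-5p, and S2 is the lowest library in all 5.

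The ratio of dre-miR-18c to hsa-miR-20a-5p was 1.48, 1.89 and 1.52 in large fish against 2.35, 2.38 and 2.32 in small fish. It was the tightest of the ratios in small fish, where the SD was 0.0318, and its groups were apart. The ratio of hsa-miR-20a-5p to dre-miR-17a-5p averaged 2.83 ± 0.471 in large fish against 2.86 ± 0.188 in small fish (n = 3 each, SD), with groups that overlapped. The ratio of dre-miR-19c-3p to hsa-miR-20a-5p was 22.7, 26.8 and 12.4 in large fish against 26.6, 50.4 and 38.5 in small fish, overlapping only between L2 and S1.

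The other hairpin arms were mostly rare. Of 54 member entries of the other arm, 15 were tested, in 9 distinct sets, and none of the 18 other-arm entries of miR-18 reached the level for a test. The sequences of the 4 that the comparison turned on follow, with bases 2 to 8 in capitals.
dre-miR-19b-5p: aGTTTTGCtggtttgcattcag
dre-miR-92a-5p: aGGTTGGGattggtagcaatgct
dre-miR-92a-2-5p: aGGTTGGGatcggccgcaatgct
dre-miR-363-5p: cGGGTGGAtgactctgcaatttt

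dre-miR-19b-5p had 2.66, 1.44 and 3.07 CPM in large fish and 1.05, 0.174 and 0.269 CPM in small fish. These values rested on 14, 11 and 20 counts in large fish and on 7, 2 and 2 counts in small fish. Every large fish library lay above every small fish library, opposite to the guide-arm name hsa-miR-19b-3p. On the log2(CPM + 1) scale, which understates the change of so rare an entry, the log2 fold change was 1.19 (SE 0.34, limma adjusted p = 0.0547), the lowest adjusted p of any member. By edgeR's exact test on the counts it was 2.57 (adjusted p = 0.00891), and 6 of its 18 alternatives passed it. The log2 ratio of guide to other arm, with 1 CPM added to each, was 3.90, 4.13 and 3.59 in large fish against 5.11, 6.15 and 5.47 in small fish. The pair was chosen after its values were seen. It joins a human guide name to a zebrafish other-arm name, so the 2 need not come from 1 hairpin. The other tested set of this arm, gmo-miR-19b-2-5p and ssa-miR-19c-4-5p, had 4, 11 and 11 counts in large fish and 7, 2 and 2 counts in small fish. Its groups overlapped, since L1 lay below S1, at a log2 fold change of 0.64 (SE 0.33, limma adjusted p = 0.222).

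For miR-92a, 3 other-arm names were tested, and the differences between them were not tested. dre-miR-92a-5p had 11.8, 21.0 and 29.9 CPM in large fish and 25.6, 11.4 and 22.6 CPM in small fish, with overlapping groups and a log2 fold change of 0.05 (SE 0.43, 95% interval -0.95 to 1.06, limma adjusted p = 0.958). dre-miR-92a-2-5p had 9.29, 6.14 and 3.68 CPM in large fish and 1.80, 3.82 and 2.82 CPM in small fish, with a log2 fold change of 0.91 (SE 0.37, limma adjusted p = 0.137). Its groups overlapped only through L3 and S2. The name xla-miR-92a-4-5p had the counts of dre-miR-92a-5p in every library but L2, where it had 76 against 161. Its log2 fold change was -0.28 (SE 0.48, limma adjusted p = 0.726).

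miR-363 was the only number whose other arm was as abundant as its guide. dre-miR-363-5p had 8.16, 9.01 and 3.68 CPM in large fish and 5.84, 10.3 and 6.58 CPM in small fish, with a log2 fold change of -0.15 (SE 0.37, limma adjusted p = 0.805). The log2 ratio of hsa-miR-363-3p to it, a pair chosen after its values were seen, lay between -0.63 and 0.37 in large fish and between -0.47 and 0.32 in small fish. For the miR-17a hairpin the guide exceeded the other arm, dre-miR-17a-3p, whose values were 1.52, 0 and 0.767 CPM in large fish and 0, 1.74 and 1.48 CPM in small fish. The log2 ratio with 1 CPM added averaged 3.16 ± 0.800 in large fish against 2.90 ± 0.805 in small fish (n = 3 each, SD), and the 2-sided exact permutation test over the 6 libraries gave p = 0.5, where the smallest possible p was 0.1. Leaving out L2 turned the difference of 0.27 to -0.17. This was the only zebrafish or common carp pair with both arms that qualified, so no adjustment over pairs was needed.

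**Figure D4:**
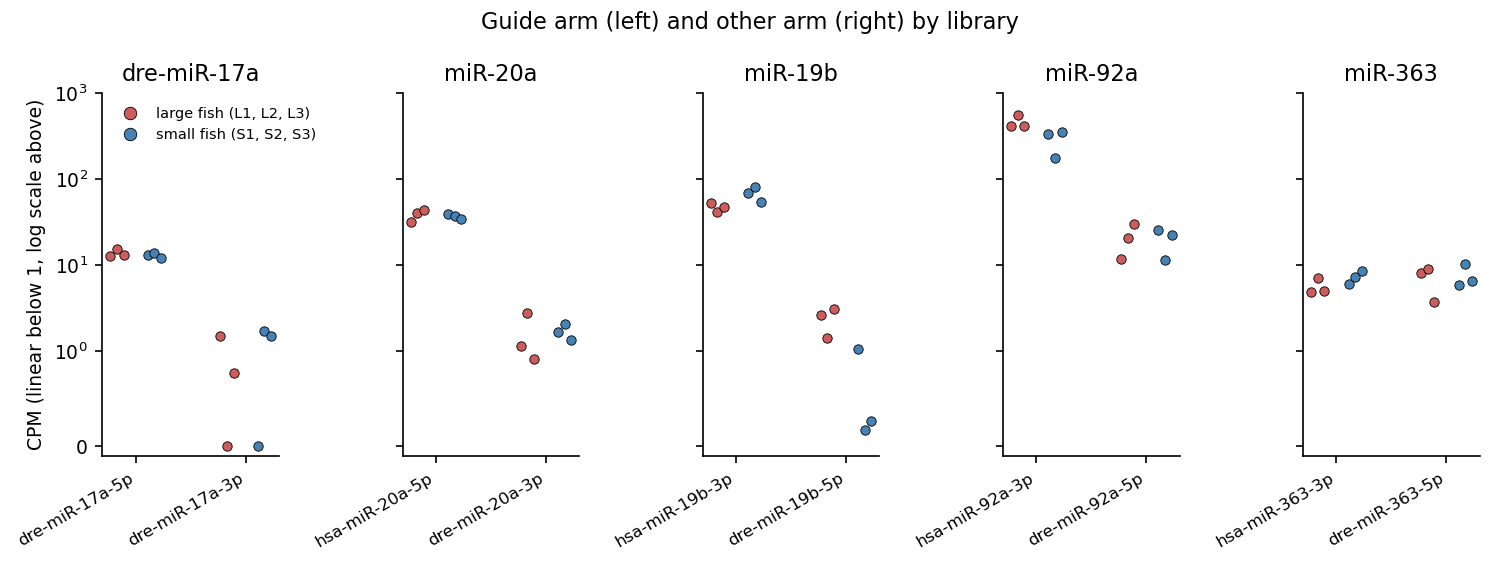
CPM of a guide-arm name and of an other-arm name for 5 pairs in each library (linear below 1 CPM, log scale above), with large fish in red to the left of small fish in blue. Apart from the miR-17a pair, the pairs join a human guide name to a zebrafish other-arm name. They were chosen after their values were seen and need not come from 1 hairpin. For the miR-19b names the guide arm is lower and the other arm higher in large fish without overlap, and for miR-363 the arms are at like levels.

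Outside the member numbers, entries with one of the 4 seeds in bases 2 to 8 were 3 names of miR-235, the nematode relative of miR-92. The tested one, prd-miR-235-3p, had 12.3, 17.5 and 11.2 CPM in large fish and 7.33, 4.42 and 8.33 CPM in small fish, giving a log2 fold change of 0.94 (SE 0.31, limma adjusted p = 0.0765), with L2 highest and S2 lowest as for hsa-miR-92a-3p. These values were the same as those of the members asu-miR-92-3p, bma-miR-92 and xbo-miR-92a, so they are not separate evidence. Families whose seed is offset from a member seed were set beside the members, with no test of a difference from them. miR-430, which clears maternal mRNA in zebrafish embryos, had 3 tested entries with none passing, and dre-miR-430a-3p averaged 1.18 ± 1.02 CPM in large fish and 1.17 ± 0.790 CPM in small fish (n = 3 each, SD). Of the 63 tested entries of miR-130, miR-301 and miR-454, whose seed is offset from that of miR-19, 21 were lower and 0 higher in large fish, against 14.2% lower in the table. They were 11 of 30 entries of miR-130, 2 of 23 of miR-301 and 8 of 10 of miR-454. hsa-miR-454-3p had 59.4, 79.0 and 64.1 CPM in large fish and 113.0, 112.2 and 128.5 CPM in small fish, giving a log2 fold change of -0.80 (SE 0.21, limma adjusted p = 0.0406).

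Some markers of blood cells and other tissues differed between the groups and others did not. Leukocyte markers miR-142, miR-150 and miR-223 had 36 tested entries in 23 distinct sets of values. Of the 36, 26 passed as higher in large fish, against 2.82% of the table. They were 8 of 18 entries of miR-142, 11 of 11 of miR-150 and 7 of 7 of miR-223. The summed leading entries of these families were 9374 to 11700 CPM in large fish and 3283 to 4506 CPM in small fish. Erythroid markers miR-144, miR-451 and miR-486 had 0 of 34 tested entries called, and summed to 3118 to 3275 CPM in large fish and 1411 to 3344 CPM in small fish, with miR-486 at or near 0 throughout. The leukocyte sum was highest in L2 and lowest in S2, as were the levels of hsa-miR-92a-3p. The erythroid sum was highest in S2 and lowest in S3. Skeletal muscle markers miR-1, miR-133 and miR-206 had 75 tested entries in 41 distinct sets of values. Of the 75, 69 passed as lower in large fish, against 14.2% of the table. They were 28 of 29 entries of miR-1, 37 of 38 of miR-133 and 4 of 8 of miR-206. The summed leading entries of the muscle families were 2374 to 6609 CPM in large fish and 10590 to 17500 CPM in small fish. The muscle sum was lowest in L2 and highest in S2, in the opposite order, so that L2 and S2 were not the extremes of the leukocyte sum alone. miR-126, a marker of thrombocytes and endothelium, had 0 of 16 tested entries called, and miR-122, a liver marker, 0 of 5. The leading entry dre-miR-126a-3p had a log2 fold change of -0.02 (SE 0.30, limma adjusted p = 0.983). For cgr-miR-122 it was -0.63 (SE 0.39, limma adjusted p = 0.310). The part of these cell sources in the levels of the members was not tested.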

How the data were processed

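Small RNA of plasma exosomes was sequenced with molecular identifiers, 6 libraries in all. The authors trimmed the reads to lengths of 15 to 35 nt, used Bowtie to take out other classes of RNA, matched what was left to miRBase and the genome of grass carp, and counted each molecular identifier once. The deposited values are CPM over known and newly predicted miRNA counts of a library, with no length normalization. Dividing each library by its lowest value gave whole counts (100% of values within 0.02 of a whole number). The members and lists were chosen with earlier results of these data known.

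Analyses used R 4.3.3 with limma 3.58.1 (trend, log2 of CPM plus a pseudocount of 1, 1 CPM or more in 3 or more libraries, Benjamini-Hochberg over the whole table), and edgeR 4.0.16 and DESeq2 1.42.0 on recovered counts as alternatives. The procedure was tested on simulated data. Changes went up or down there at random, so the choice of scaling was not tested by the simulation. Named entries were the most abundant of each number and of each other arm, and zebrafish and common carp entries. Others are said to be chosen after their values were seen, as are hsa-miR-20a-5p and hsa-miR-19b-3p. Newly predicted miRNAs and other tissues were not analysed here. Cluster positions in the grass carp genome are not given, as no miRNA annotation was used here.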

Additional observations from a re-analysis of the deposited data

How the results depend on the processing

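With 3 pools a group, rare members are limited by counts: 29 tested members had under 10 counts in at least 1 library. The number of members passing was 0 on the CPM scale. It was 0 with other pseudocounts, other filters, edgeR's quasi-likelihood test, no fold threshold, identical entries counted once and each library left out. It was 14 after TMM scaling, 27 after quantile normalization, 2 by limma without trend, 14 by the bias-corrected quasi-likelihood test, 30 by edgeR's exact test and 33 by DESeq2. Of the 33, 29 were of miR-92. Over the whole table, between 1 and 365 entries passed with 1 library left out (1 without L2), against 308 with all, and 46 by edgeR's quasi-likelihood test. The causes of these differences were not tested.

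The same replicate numbers did not pair the libraries (correlations of deviations -0.0530, -0.0594 and 0.0189). With a replicate block 0 members and 207 entries of the table passed.

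Median log2 fold changes moved under several settings. For the seed of miR-17 the median was 0.24 (TMM), 0.42 (quantile), 0.32 (edgeR quasi-likelihood), 0.31 (bias-corrected), 0.32 (exact) and 0.36 (DESeq2). For that of miR-18 it was 0.013 (no filter), 0.18 (quantile), 0.047 (quasi-likelihood), 0.077 (bias-corrected), 0.050 (exact) and 0.078 (DESeq2). For that of miR-19 it was -0.27 (no filter), -0.12 (quantile), -0.27 (quasi-likelihood), -0.28 (bias-corrected), -0.27 (exact) and -0.23 (DESeq2). For that of miR-25, miR-92 and miR-363 it was 0.29 with no filter and 0.48 with a pseudocount of 10, against 0.75. It was higher under other settings: 0.95 (TMM), 1.05 (quantile), 1.01 (quasi-likelihood), 1.01 (bias-corrected), 1.01 (exact) and 1.05 (DESeq2).

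Members near 0 changed sign. dre-miR-20a-3p gave 0.012 (TMM), 0.26 (quantile), 0.19 (quasi-likelihood), 0.20 (bias-corrected), 0.19 (exact) and 0.23 (DESeq2). dre-miR-363-5p gave 0.024, 0.37, 0.12, 0.098, 0.12 and 0.16 in the same order. After quantile normalization dre-miR-17a-2-3p, with the values of dre-miR-17a-3p, gave 0.25 and hsa-miR-363-3p 0.21. With 1 library left out the ranges were -0.012 to 0.11 for dre-miR-17a-5p, -0.66 to 0.16 for dre-miR-17a-2-3p, -0.0015 to 0.18 for pma-miR-20a-5p, -0.40 to 0.081 for dre-miR-20a-3p, -0.28 to 0.40 for dre-miR-92a-5p, -0.00099 to 0.18 for abu-miR-106, -0.35 to 0.19 for dre-miR-363-5p, -0.090 to 0.41 for ccr-miR-18b, -0.075 to 0.44 for dre-miR-92b-3p, -0.052 to 0.16 for hsa-miR-20a-5p and -0.17 to 0.73 for the difference in the miR-17a arm ratio.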
